A study of Mus musculus with 8 samples.

Results

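The measurements described here are of transcription factors that set and hold macrophage identity, in hepatic macrophages from mice with acetaminophen liver injury. Of 9 listed genes, Spi1, Cebpa, Cebpb, Irf8, Maf, Zeb2, Nr1h3, Spic and Id3, 8 lay on an array row carrying exactly 1 gene symbol and were measured, out of 22180 genes in all. Zeb2 lay only on 2 rows that each carry another symbol as well, and is not analysed here. A gene with several rows is represented by its brightest row, judged by the mean of the 8 arrays. The members were split into general macrophage factors (5 measured: Spi1, Cebpa, Cebpb, Irf8 and Maf) and factors tied to Kupffer cells, the resident macrophages of the liver (3 measured: Nr1h3, Spic and Id3).

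Both groups were male FVB/N mice aged 8 weeks, and both received acetaminophen at 350 mg/kg into the peritoneum, a dose that kills hepatocytes. The tail vein injection given 12 h earlier was 25 µg of recombinant transferrin (rTF), the plasma iron carrier, in the control group and 50 µg of recombinant CPS1 (rCPS1), a mitochondrial urea cycle enzyme of hepatocytes, in the other, so the protein and its amount differ together. Each group holds 4 arrays, none from mice without acetaminophen. Every title names Mouse1, so whether the 4 arrays of a group come from separate mice is not settled, and the tests see only array-to-array spread, part or all of which may be technical. Values are log2 levels per array row, and the arrays' medians lay between 3.55 and 3.68. All 8 measured members were above the array's median in every array.

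PU.1, encoded by Spi1, opens myeloid enhancers together with C/EBP factors, and the level of PU.1 separates macrophage from granulocyte and lymphoid fates. IRF8 favours monocytes and macrophages over neutrophils, and MAF restrains self-renewal in mature macrophages. In the liver, Notch ligands and BMP/TGF-beta signals from the sinusoidal endothelium and lipid ligands of LXR alpha, encoded by Nr1h3, impose the Kupffer cell programme on top of that general one. ID3 is required for Kupffer cells to form, and SPIC, an ETS factor related to PU.1, drives iron recycling genes in red pulp macrophages and is also expressed by Kupffer cells. In bulk RNA, fewer cells of a type and less RNA per cell cannot be told apart.

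The 250 bases upstream of the annotated start (RefSeq, build GRCm38.p6, 5′ to 3′ on the gene's strand) are shown for 3 members. Id3 and Spic had the widest group differences, in opposite directions and neither beyond its error, and Cebpb belongs to the 2 pairs of members with the lowest unadjusted p across arrays, neither of which passed adjustment. The capitals mark matches to GAGGAA, the purine-rich box that PU.1 binds, read on either strand. The windows lie at chr4:136143572-136143821 (plus strand) for Id3, chr10:88683024-88683273 (minus strand) for Spic and chr2:167688665-167688914 (plus strand) for Cebpb.
Id3: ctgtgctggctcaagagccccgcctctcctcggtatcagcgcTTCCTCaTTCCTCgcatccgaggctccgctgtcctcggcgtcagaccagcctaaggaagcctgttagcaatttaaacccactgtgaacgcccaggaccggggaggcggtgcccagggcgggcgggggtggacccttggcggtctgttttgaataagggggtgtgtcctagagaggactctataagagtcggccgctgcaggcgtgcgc
Spic: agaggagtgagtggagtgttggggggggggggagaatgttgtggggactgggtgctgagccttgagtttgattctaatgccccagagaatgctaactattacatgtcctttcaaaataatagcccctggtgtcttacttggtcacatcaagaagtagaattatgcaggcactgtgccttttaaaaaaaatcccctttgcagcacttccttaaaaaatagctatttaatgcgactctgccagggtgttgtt
Cebpb: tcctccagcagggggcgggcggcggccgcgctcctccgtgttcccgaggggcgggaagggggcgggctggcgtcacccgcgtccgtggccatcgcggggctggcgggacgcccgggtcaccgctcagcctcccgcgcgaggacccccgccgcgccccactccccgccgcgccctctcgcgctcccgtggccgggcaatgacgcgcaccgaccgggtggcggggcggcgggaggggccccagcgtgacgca
Upstream windows were found for 6 of the 8 measured members (Cebpa, Cebpb, Irf8, Nr1h3, Spic and Id3). Id3 held a pair of GAGGAA matches, beginning 208 and 201 bases before the start and both read on the opposite strand as TTCCTC. The other 5 members had no match to it in any of their windows, and 23.3% of all 32851 windows in the table held at least 1. None of the 6 matched TTGCNNAA, a C/EBP element (9.56% of all windows), AGGTCA, a nuclear receptor half-site (14.0%), or GTGGGAA, an RBPJ element (5.42%). TATAAA, the TATA box, stood 30 bases before the start of Cebpa and 31 before the first start of Irf8 (12.4% of all windows). The windows differed in base composition, with 44.8% G and C for Spic, 62.8% for Id3 and 81.6% for Cebpb, against a median of 52.4%. These are matches of letters, not measured binding.

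The comparison of the 2 groups asks whether the bulk RNA differed with rCPS1 in place of rTF before the overdose, here for factors that define macrophages. No measured lineage factor differed between rTF and rCPS1 beyond the spread between arrays, neither the general factors nor those tied to Kupffer cells. The widest differences were those of Id3, at a log2 difference (rCPS1 minus rTF) of -0.32 ± 0.21 (SE, n = 4 per group), and Spic, at 0.17 ± 0.26. The other 6 members differed by -0.13 to 0.07. In limma's fit over all genes with Benjamini-Hochberg adjustment, 0 of the 8 members passed 0.05, and the background was 0.0% of 22180 genes. At an unadjusted p under 0.05 it was 0 of 8 members against 4.67% of all genes, and groups that did not overlap were 0 of 8 against 2.92% (1.97% with rCPS1 lower and 0.947% with rCPS1 higher). The number of arrays limits this: the 95% interval of a member's log2 difference reached 0.31 to 0.59 to either side of the estimate. For all 8 members it left out a log2 change of 1 in either direction, and for 6 of them, not Spic or Id3, a change of 0.5. These intervals hold only array-to-array spread, so they do not bound a difference between mice if the arrays are technical replicates.

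Among the general factors, Spi1 (probe set 17373177) encodes PU.1, the pioneer factor of the myeloid lineage. Its log2 level was 9.36, 8.78, 9.03 and 8.88 in rTF replicates 1 to 4 and 8.99, 8.86, 8.77 and 8.93 in rCPS1 replicates 1 to 4. The rTF replicate 1 array stood highest and the rest lay between 8.77 and 9.03, with both groups mixed. The group means were 9.01 ± 0.25 and 8.89 ± 0.10 (SD, n = 4 each), a log2 difference of -0.13 ± 0.14 (SE) with a 95% interval of -0.44 to 0.19. The limma adjusted p was 0.98 and the two-sided exact permutation p over 70 assignments was 0.429. All 4 rCPS1 arrays lay below the rTF mean, but the difference was -0.010 without rTF replicate 1.

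Cebpa (probe set 17476728) encodes C/EBP alpha, which starts the myeloid programme in progenitors and is also a hepatocyte factor. It was at 7.07, 6.77, 6.69 and 6.66 in the rTF arrays and at 6.86, 6.94, 6.64 and 6.37 in the rCPS1 arrays. The 2 lowest values were in rCPS1, and the highest was in rTF. The means were 6.80 ± 0.19 and 6.70 ± 0.25 (SD, n = 4 each), a difference of -0.094 ± 0.15 (SE; 95% interval -0.44 to 0.25, limma adjusted p = 0.981). The hepatocyte markers Alb, Apoa1 and others averaged 7.13 to 7.53 in the rTF arrays and 6.82 to 7.49 in the rCPS1 arrays, with the lowest value in rCPS1 replicate 4, where Cebpa was lowest too. In rTF the highest hepatocyte mean, 7.53, was in replicate 3, where Cebpa was at 6.69. Over the 8 arrays the hepatocyte mean and Cebpa had Pearson r = 0.73 (exact permutation p = 0.0385, adjusted p = 0.381). Without the 2 arrays farthest from the median of the hepatocyte mean, r was 0.19. The hepatocyte markers' part in the Cebpa values was not tested beyond this.

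Cebpb (probe set 17379938) encodes C/EBP beta, an inducible factor of inflammatory and repair genes in macrophages. Its level was 8.68, 7.93, 8.42 and 8.14 with rTF and 8.44, 8.45, 8.00 and 8.18 with rCPS1. The rCPS1 values all lay inside the rTF range, and the group difference was -0.022 ± 0.18 (SE; 95% interval -0.42 to 0.37, limma adjusted p = 0.994).

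Irf8 (probe set 17506279), whose factor also serves dendritic and B cells, was at 9.35, 9.47, 9.59 and 9.88 with rTF and at 9.78, 9.46, 9.72 and 9.62 with rCPS1. Here too the rCPS1 values lay inside the rTF range, with a difference of 0.074 ± 0.14 (SE; 95% interval -0.23 to 0.38, limma adjusted p = 0.982). A second Irf8 row (probe set 17548703), near the median of the array, differed by 0.017 ± 0.24 (SE).

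Maf (probe set 17513289) encodes c-MAF, which T cells and endothelial cells can also express. It stood at 9.30, 9.80, 9.77 and 9.44 with rTF and at 9.62, 9.83, 9.33 and 9.49 with rCPS1. Highs and lows were spread over both groups. The difference was -0.011 ± 0.16 (SE; 95% interval -0.36 to 0.34, limma adjusted p = 0.997). The second Maf row (probe set 17505903) averaged 6.54 ± 0.20 with rTF and 6.27 ± 0.61 with rCPS1 (SD, n = 4 each), a difference of -0.26 ± 0.27 (SE), so the rows give the same sign and different sizes, neither beyond its error.

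Of the factors tied to Kupffer cells, Nr1h3 (probe set 17388177) encodes LXR alpha, the oxysterol receptor. It was at 7.12, 6.80, 6.51 and 6.96 in the rTF arrays and at 7.23, 6.58, 6.86 and 6.86 in the rCPS1 arrays. The groups covered nearly the same span, 0.61 and 0.66 from lowest to highest. The means were 6.85 ± 0.26 and 6.88 ± 0.27 (SD, n = 4 each), a difference of 0.034 ± 0.17 (SE; 95% interval -0.35 to 0.42, limma adjusted p = 0.99).

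Spic (probe set 17243943) varied most of the members. Its log2 level was 10.80, 9.49, 10.04 and 9.75 with rTF and 10.07, 10.61, 10.14 and 9.94 with rCPS1. The rTF arrays held both the highest and the lowest value, 1.30 apart, and the 4 rCPS1 arrays lay between them. The pooled within-group SD of 0.45 was above that of 93.0% of genes. Means of 10.02 ± 0.56 and 10.19 ± 0.29 (SD, n = 4 each) gave a difference of 0.17 ± 0.26 (SE), a fold of 1.12 with a 95% interval of 0.748 to 1.69. The limma adjusted p was 0.981 and the exact permutation p was 0.571. Individual rTF arrays set the size: without rTF replicate 1 the difference was 0.43 (limma unadjusted p = 0.054, adjusted p = 0.885), and without rTF replicate 2 it was -0.008.

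Id3 (probe set 17420016) encodes an inhibitor that pairs with E proteins and lacks a DNA-binding region of its own, and lymphocytes and endothelial cells express it as well. The rTF arrays were at 8.64, 9.42, 8.75 and 8.84 and the rCPS1 arrays at 8.56, 8.89, 8.14 and 8.78. All 4 rCPS1 arrays lay below the rTF mean and 2 lay below the lowest rTF array, while the ranges overlapped. Means of 8.91 ± 0.35 and 8.59 ± 0.33 (SD, n = 4 each) gave a difference of -0.32 ± 0.21 (SE), a fold of 0.801 with a 95% interval of 0.580 to 1.11. The limma unadjusted p was 0.156, the adjusted p 0.98 and the exact permutation p 0.314. The high value in rTF replicate 2 coincided with the highest T and NK cell marker mean, 7.42, where replicates 1, 3 and 4 of rTF had 6.12 to 6.44. That array also had the highest neutrophil (7.11), dendritic cell (6.30) and endothelial (11.57) marker means of rTF, so the match is not particular to T and NK cells. Leaving replicate 2 out gave an Id3 difference of -0.15 (limma unadjusted p = 0.431). Within rCPS1 the order was different: the T and NK cell marker mean was 6.27, 5.98, 6.36 and 5.84 in replicates 1 to 4, highest in replicate 3, where Id3 was lowest. The endothelial marker mean was lowest in that array, at 11.42. The part of any of these cell types in the Id3 values was not tested.

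**Figure D1:**
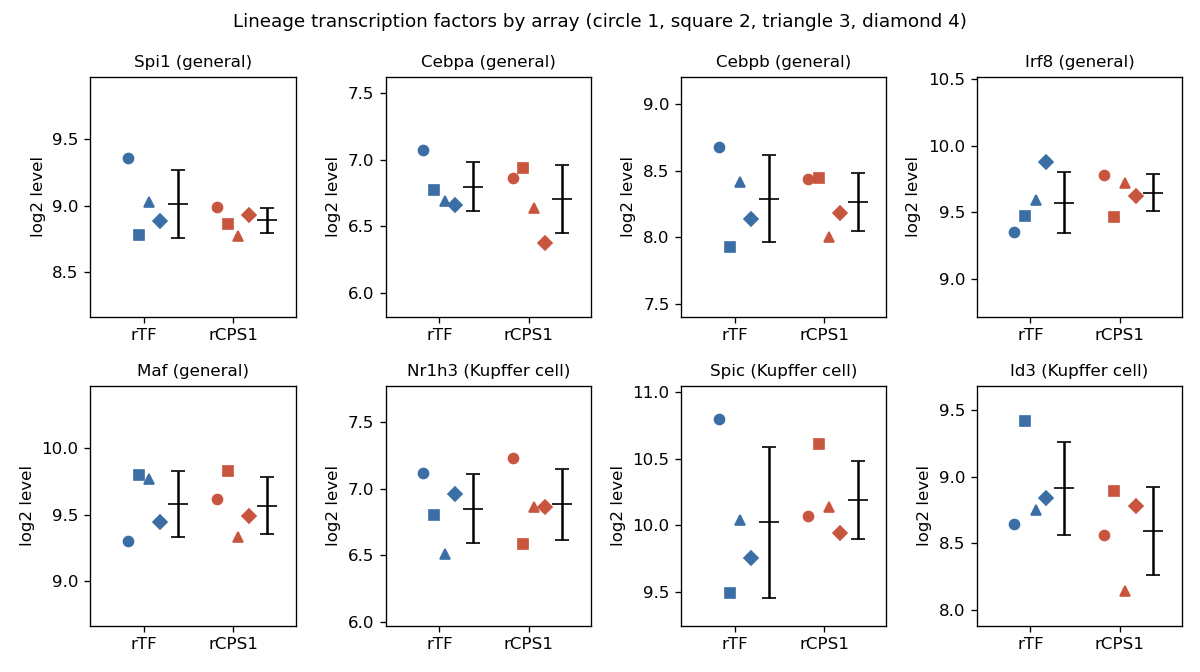
Log2 level of each measured factor in every array (vertical axis, each panel spanning the same log2 width) for rTF (blue) and rCPS1 (red), with symbols for replicate numbers and bars for the group mean ± SD (n = 4). The groups overlap in all 8 panels, and Spic has the widest spread, from 9.49 to 10.80 within rTF.

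**Figure D2:**
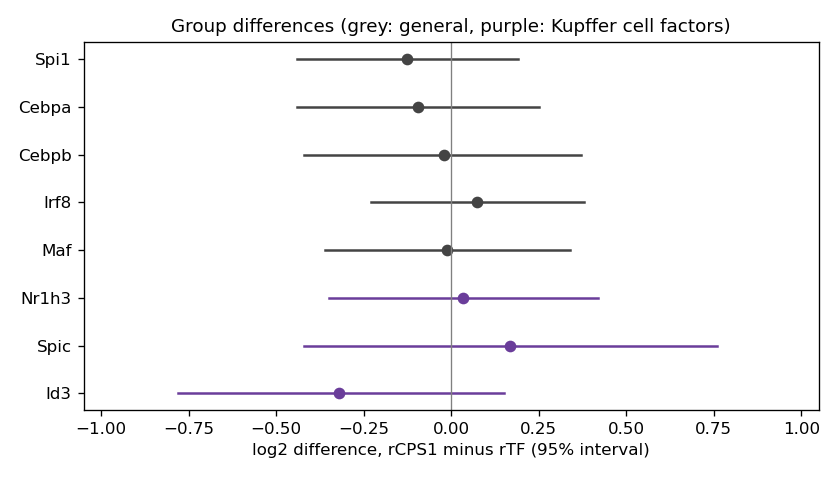
Log2 difference, rCPS1 minus rTF, with limma's 95% interval for the 5 general (grey) and the 3 Kupffer cell factors (purple). Every interval crosses 0, and those of Spic (-0.42 to 0.76) and Id3 (-0.78 to 0.15) are the widest.

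Set side by side, the general factors had a median log2 difference of -0.022 (1 higher, 4 lower) and the Kupffer cell factors one of 0.034 (2 higher, 1 lower), against -0.018 over all genes, of which 54.4% were lower. Each class median changed sign for some of the 8 arrays left out in turn, running from -0.104 to 0.049 for the general and from -0.082 to 0.124 for the Kupffer cell factors, and with the rows of a gene averaged the general median was -0.094. Averaged within each array, the general factors were at 8.65 ± 0.09 with rTF and 8.61 ± 0.13 with rCPS1 (SD, n = 4 each), a difference of -0.036. The Kupffer cell factors were at 8.59 ± 0.18 and 8.56 ± 0.14, a difference of -0.039. The mean and the median of the Kupffer cell factors thus differ in sign, since Id3 and Spic stand on opposite sides of 0. The within-group spread of 6 of the 8 members was above the median spread of all genes.

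The cells were checked against markers. All 10 Kupffer cell markers, among them the lectin gene Clec4f, the phosphatidylserine receptor gene Timd4 and Vsig4, lay above the median row level. So did all 10 sinusoidal endothelial markers and all measured monocyte, B cell, dendritic, hepatocyte and stellate cell markers. Of the neutrophil and of the T and NK cell markers, 1 each lay below it. In all, 12384 of the 22180 genes lay above this level, so it does not single out a cell type. Of the marker lists, the endothelial one had the highest mean, 11.47 ± 0.12 with rTF and 11.51 ± 0.07 with rCPS1 (SD, n = 4 each). The part of endothelial RNA in these samples was not tested. The Kupffer cell marker mean was 8.77 to 9.34 in the rTF arrays and 8.86 to 9.68 in the rCPS1 arrays, with 9 of 10 markers higher and a median log2 difference of 0.22. No Kupffer cell marker had an unadjusted limma p under 0.05; Marco, a scavenger receptor gene, came nearest at 0.41 ± 0.21 (SE). Classical monocyte markers went the other way: their mean was 8.34 to 8.83 with rTF and 7.67 to 7.85 with rCPS1. All 9 were lower, against 54.4% of all genes, with a median of -0.72. Of them, 8 had an unadjusted limma p under 0.05, against 4.67% of all genes. F13a1, the coagulation factor XIII A subunit gene, differed by -1.17 ± 0.24 (SE). Neutrophil markers spanned 6.21 to 7.11 with rTF and 5.09 to 5.92 with rCPS1, all 10 lower with a median of -1.08. Groups that did not overlap were seen for 6 of the 9 monocyte and 6 of the 10 neutrophil markers. Among all genes, 1.97% had rCPS1 below rTF without overlap. The lists were chosen with earlier results of these data known, so the counts are descriptions and no independent support. Limma's adjusted threshold was passed by 0 genes. In comparison, Spi1, Cebpa, Cebpb and Irf8, which monocytes or neutrophils share with resident macrophages, differed by -0.13 to 0.07 in the same arrays in which those marker means differed by -0.73 and -1.07. The part of these cells in the members' values was not tested.

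**Figure D3:**
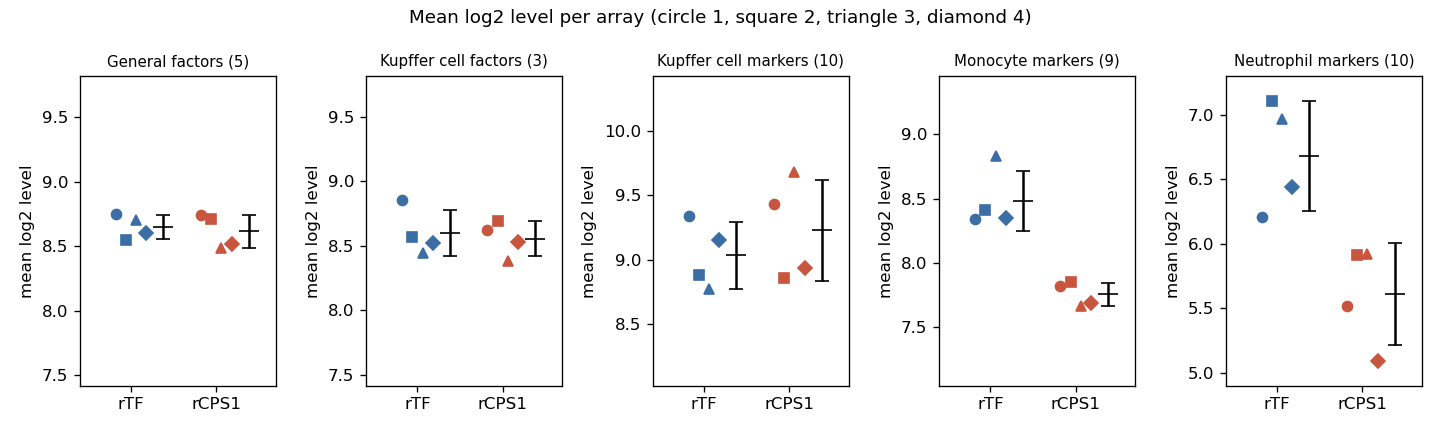
Mean log2 level per array (vertical axis, equal widths) of the 5 general factors, the 3 Kupffer cell factors and the Kupffer cell, monocyte and neutrophil markers, for rTF (blue) and rCPS1 (red), with bars for the group mean ± SD (n = 4). The factor means overlap between groups, whereas the monocyte means (8.34 to 8.83 against 7.67 to 7.85) and the neutrophil means do not.

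Other cell types that share some members gave overlapping means in the groups. T and NK cell markers averaged 6.12 to 7.42 with rTF and 5.84 to 6.36 with rCPS1, with 8 of 9 lower and a median log2 difference of -0.51. Of these 9, 3 had an unadjusted limma p under 0.05, all lower, against 4.67% of all genes. The groups did not overlap for 1 of them, Il7r, the interleukin 7 receptor gene (-0.49 ± 0.20, SE), against 1.97% of all genes with rCPS1 lower. B cell markers averaged 4.93 to 6.07 and 5.05 to 6.25 (7 of 7 higher), dendritic cell markers 5.79 to 6.30 and 5.83 to 5.96 (6 of 8 lower), and stellate cell markers 4.97 to 5.92 and 4.97 to 5.67 (8 of 9 lower). Endothelial markers, the source of Kupffer cell niche signals, averaged 11.30 to 11.57 and 11.42 to 11.59 (8 of 10 higher).

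Among 28 other measured transcription factors of myeloid lineage and macrophage maturation, 10 were higher and 18 lower with rCPS1, with a median log2 difference of -0.04, and 0 had an unadjusted limma p under 0.05. The nearest were Gfi1, a repressor of the granulocyte lineage, at -0.30 ± 0.15 (SE), and Pparg, a lipid-sensing nuclear receptor gene, at 0.35 ± 0.20. Klf4, a monocyte factor, differed by 0.15 ± 0.15 and Nfil3 by -0.28 ± 0.18. Irf5, which lay on no row carrying its symbol alone, was not analysed here.

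Of 29 measured genes upstream of or beside the Kupffer cell factors (Notch, BMP and TGF-beta signalling and LXR partners), 14 were higher and 15 lower, and 0 passed the adjusted threshold. An unadjusted limma p under 0.05 was seen for 1 of the 29, against 4.67% of all genes. The groups did not overlap for 1 of the 29, against 2.92%, so both counts were near the background. Rbpj, the DNA-binding partner of Notch, was at 9.01, 8.84, 8.83 and 8.89 with rTF and at 8.72, 8.67, 8.71 and 8.63 with rCPS1. All rCPS1 values were under the lowest rTF value, as for 1.97% of all genes. Its difference was -0.21 ± 0.10 (SE; limma unadjusted p = 0.0621, adjusted p = 0.98). Smad3, a TGF-beta signal transducer, averaged 6.61 ± 0.26 with rTF and 6.26 ± 0.20 with rCPS1 (SD, n = 4 each), a difference of -0.36 ± 0.16 (SE; limma unadjusted p = 0.045, adjusted p = 0.98) with overlapping groups. On the higher side stood the BMP receptor gene Bmpr2 (0.23 ± 0.16) and Notch1 (0.14 ± 0.13).

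Known target genes of the factors were set beside them. Of 18 targets of the general factors, 6 were higher and 12 lower, with a median of -0.07, and 4 had an unadjusted limma p under 0.05, all lower, against 4.67% of all genes. Groups that did not overlap were seen for 4 of the 18, against 2.92% of all genes. This list too was chosen with earlier results of these data known, so its counts are descriptions. Among the 4 of low p, Csf3r and Itgam are also in the neutrophil and monocyte lists. Csf3r, the G-CSF receptor gene, differed by -0.53 ± 0.13 (SE) and Cd14, the endotoxin co-receptor gene, by -0.38 ± 0.11, each with rCPS1 below rTF in every array; their adjusted p was 0.862 and 0.98. The complement genes C1qc and C1qa, taken here as MAF targets, differed by 0.21 ± 0.20 and 0.13 ± 0.22. Of 9 measured LXR targets, 7 were higher and 2 lower with a median of 0.03 and none under an unadjusted p of 0.05, among them the phospholipid enzyme gene Lpcat3 (0.19 ± 0.11) and Mertk (0.098 ± 0.10), an uptake receptor gene. Of 6 genes that depend on SPIC in red pulp macrophages, 5 were higher and 1 lower, with a median of 0.16 and none under an unadjusted p of 0.05. They included Hmox1, the heme-degrading enzyme gene (0.22 ± 0.26), Blvrb, a biliverdin reductase gene (0.23 ± 0.17), and the iron exporter gene Slc40a1 (-0.007 ± 0.19). The mean of these 6 was 9.12 to 10.11 in the rTF arrays and 9.34 to 9.88 in the rCPS1 arrays, highest and lowest in the same rTF replicates, 1 and 2, as Spic itself. Within rCPS1 it was highest in replicate 3 (9.88), whereas Spic was highest in replicate 2.

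For each of the 8 members the pooled within-group SD (0.19 to 0.45) exceeded the size of the group difference. In rTF replicate 1, 5 members (Spi1, Cebpa, Cebpb, Nr1h3 and Spic) were at their highest of the group and the other 3 (Irf8, Maf and Id3) at their lowest. In rTF replicate 2, Maf and Id3 were highest and Spi1, Cebpb and Spic lowest. In the rCPS1 group, replicate 2 held the highest value of 5 members and replicate 3 the lowest of 4. Over the 8 arrays, 100 relations were computed, 28 between members and 72 of a member with a marker list, by exact permutation of the pairings. At an unadjusted p under 0.05 stood 11 by Pearson and 7 by Spearman, and 0 passed after Benjamini-Hochberg adjustment by either. All values share the same 8 arrays, so the relations are descriptions of these arrays.

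Spi1 and Cebpb had r = 0.84 (exact permutation p = 0.00372, adjusted p = 0.186) and rho = 0.71 (exact permutation p = 0.0576, adjusted p = 0.576). Without the 2 arrays farthest from the median of Spi1, r was 0.73, and with group means removed it was 0.89. Cebpb and Spic had r = 0.81 (exact permutation p = 0.0141, adjusted p = 0.381) and rho = 0.76 (exact permutation p = 0.0368, adjusted p = 0.576). With group means removed r was 0.84. Without the 2 arrays farthest from the median of Cebpb it was 0.47, so the size of r depended on those arrays. Against the Kupffer cell marker mean, the 3 Kupffer cell factors gave coefficients of either sign, whose differences were not tested. Nr1h3 had r = 0.69 (exact permutation p = 0.0614, adjusted p = 0.44) and rho = 0.86 (exact permutation p = 0.0107, adjusted p = 0.536), with r = 0.93 without the 2 farthest arrays. Id3 had r = -0.77 (exact permutation p = 0.0164, adjusted p = 0.381) and rho = -0.71 (exact permutation p = 0.0576, adjusted p = 0.576), with r = -0.41 without those 2. Spic had r = 0.21 (exact permutation p = 0.606, adjusted p = 0.823) and rho = 0.29 (exact permutation p = 0.501, adjusted p = 0.808), with r = 0.38 without them. Maf, a general factor, had r = -0.75 (exact permutation p = 0.0392, adjusted p = 0.381) and rho = -0.74 (exact permutation p = 0.0458, adjusted p = 0.576), with r = -0.90 without them. The lowest p of all belonged to Spic against the dendritic cell markers, with r = -0.91 (exact permutation p = 0.00218, adjusted p = 0.186) and rho = -0.93 (exact permutation p = 0.00223, adjusted p = 0.223), and r = -0.85 without the 2 farthest arrays. Irf8 against the B cell markers had r = 0.79 (exact permutation p = 0.0205, adjusted p = 0.381), and 0.50 without the 2 farthest arrays. Against the same markers Spic had r = -0.77 (exact permutation p = 0.0273, adjusted p = 0.381), and 0.09 without them. Cebpa against them had r = -0.72 (exact permutation p = 0.0419, adjusted p = 0.381), and -0.18 without the 2 farthest arrays. Maf against the stellate cell markers had r = 0.76 (exact permutation p = 0.0352, adjusted p = 0.381), and 0.72 without them. Spic against the endothelial markers had r = -0.76 (exact permutation p = 0.0281, adjusted p = 0.381), and -0.61 without them.

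**Figure D4:**
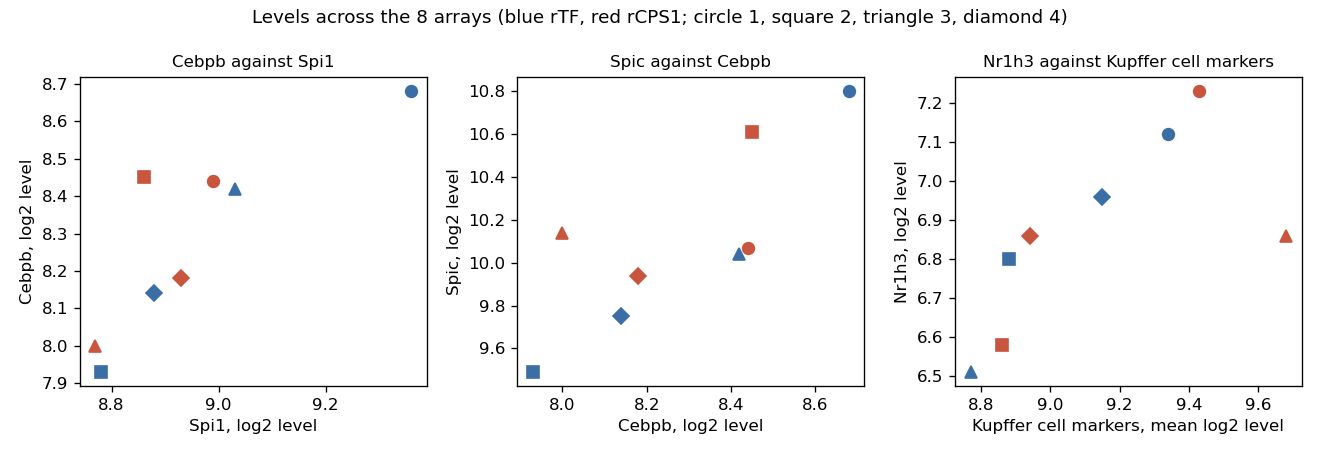
Log2 levels across the 8 arrays, rTF in blue and rCPS1 in red with symbols for replicate numbers: Cebpb against Spi1, Spic against Cebpb, and Nr1h3 against the mean of 10 Kupffer cell markers. Cebpb was highest where Spi1 was, in rTF replicate 1, and rCPS1 replicate 3 lies off the Nr1h3 relation with the highest marker mean, 9.68.

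Candidates here were genes whose mean was above the median of all gene means, a different cut from the median row level. Predicted genes, small RNA genes and olfactory and vomeronasal receptor genes were left out. Of the 10398 candidates that remained, those whose pattern over the 8 arrays was most like a member's by Pearson's r are named. For Spi1 they were Gmip (r = 0.968), Apobec1 (0.965) and Scaf4 (0.963). For Cebpb they were Tom1 (r = 0.966), Rin3 (0.965) and Akirin2 (0.956), and for Cebpa Lilrb4a (0.927), Cmklr1 (0.927) and Mvb12a (0.926). For Irf8 the values were lower, with Tspyl4 (r = 0.920), Crim1 (0.914) and Fasn (0.900). For Maf they were Ets1 (r = 0.978), Mafa (0.974) and Hoxa5 (0.962). Among the Kupffer cell factors, Nr1h3 was closest to Sdc3 (r = 0.959), Ggact (0.940) and Dnaja2 (0.938), Spic to Ptgir (0.972), Psmd11 (0.969) and Gclm (0.964), and Id3 to Ppil4 (0.967), Mphosph6 (0.967) and Dhx40 (0.966). Each is the top of a search over 8 arrays that may be technical replicates.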

How the data were processed

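RNA of 8 samples was measured on Affymetrix arrays, with biotinylated cDNA made from 400 ng of RNA extracted by the RNeasy method, per the labels' protocols. The log2 expression levels were deposited by the authors after RMA, per the submitters' processing notes, which also name limma and no versions. RMA brings arrays to nearly one distribution, so a shift shared by most genes would not show. How macrophages were isolated and when is not given in the sources used here. Groups come from the titles.

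Of 41345 rows, 23521 carried 1 gene symbol, 1814 several and 16010 none in the platform annotation. Keeping 1 row per gene gave 22180 genes. All were fitted with limma 3.58.1 (R 4.3.3, statmod 1.5.0; lmFit and eBayes, two-sided, no covariate) with Benjamini-Hochberg adjustment at 0.05. In simulated data with the means and SDs of these 22180 genes, a small part of the genes was given known changes. Of these changes, 14% of 0.5 on the log2 scale, 72% of 1, 80% of 1.5 and 96% of 2 were recovered. The simulated noise was independent between genes and arrays, and 0 genes were called in the real data. The shares therefore need not hold for the real arrays.

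The members and lists were chosen with earlier results of these data known. The text names all members and up to 2 genes of smallest p per list and direction, with some list genes left unnamed. It also names the 3 genes most like each member, leaving out predicted genes, small RNA genes and olfactory and vomeronasal receptor genes. Clec4f, Timd4, Vsig4, Alb and Apoa1 serve only as examples of their marker lists. Promoter sequences are from RefSeq. Alternatives were the mean of a gene's rows, a filter at the median level (12384 genes), trended and robust variance, array weights, a replicate block, repeated quantile normalization, all rows, and each array left out.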

Additional observations from a re-analysis of the deposited data

Results flagged for a closer look

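Of 44 groups of 4 arrays tested by Dixon's ratio (members and gene lists), 1 held an array far from the others, against 2.2 that chance gives at 1 in 20, and it was not a member. The monocyte marker mean reached 8.83 (log2) in rTF replicate 3, while replicates 1, 2 and 4 of that group had 8.34 to 8.41.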

How the results depend on the processing

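No alternative brought a member past the adjusted threshold in limma: 0 genes were called under each of the 7 other settings and with each array left out, and the smallest adjusted p of a member was 0.885. Of 120 alternative values of the members, 15 had the opposite sign. With array weights these were Cebpb (0.029), Irf8 (-0.016) and Maf (0.028). The others came from leaving out 1 array, where the log2 difference ran from -0.143 to 0.106 for Cebpb, -0.103 to 0.069 for Maf, -0.082 to 0.136 for Nr1h3, -0.172 to 0.017 for Cebpa and -0.008 to 0.426 for Spic. Spi1 (-0.203 to -0.010), Id3 (-0.419 to -0.151) and Irf8 (0.001 to 0.177) kept their sign there. With the replicate number as a block the log2 differences were the same and limma's adjusted p for the members was 0.995 to 0.998. The unadjusted limma p of Id3 was 0.069 with the block and 0.156 without it. The deviations of same-numbered arrays from their group means had correlations of -0.124 to 0.025. Differently numbered arrays were not compared, so whether the numbers pair the samples is not settled. Depth is not defined for arrays, and 4 arrays per group limit the precision.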
